A study of Arabidopsis thaliana with 22 samples.

Results

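Genes whose transcript level in *hda15-1* lay outside the range of every other RNA-seq library of the series were examined. A gene was taken where both *hda15-1* libraries had at least 5 CPM (a gene's count divided by the library total and multiplied by 1000000) and at least 2 times the highest of the 10 other libraries, or where all 10 other libraries had at least 5 CPM and at least 2 times the higher *hda15-1* library. The rule set 6 genes aside, among them HDA15 itself, and kept 54 of 27416 genes, of which 39 were higher and 15 lower in *hda15-1*. The values of *hda15-1* chose these genes, so their difference from Col-0 is described below without a test.

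RNA was measured in whole 5-day-old seedlings grown in long days, with 16 h light and 8 h dark. The study asked how the AT-hook protein AHL22 and its partners FRS7 and FRS12 act with a histone deacetylase on gene expression, and it sequenced 2 libraries each of *hda15-1*, the single mutant *ahl22*, the double mutant *frs7 frs12* and the triple mutant *ahl22 frs7 frs12*. *hda15-1* is a single T-DNA insertion line in the Col-0 background, so effects of this gene cannot be told apart from those of anything else the line carries. The *hda15-1* table holds a pair of Col-0 wild-type libraries that also serves *ahl22* and *frs7 frs12* (hereafter the own Col-0 pair), and the *ahl22 frs7 frs12* table holds a different Col-0 pair (the separate Col-0 pair), whose columns are numbered 1 and 2 but match no single sample of the labels, which list only 1 Col-0 pair of RNA libraries. The labels give soil, 22 °C and 2 days of cold for the seeds, whereas the methods of the study name plates, another temperature and a longer cold treatment. The labels describe the 2 libraries of a genotype as biological replicates, but they do not cover the separate Col-0 pair. The p-values weigh a difference between groups against the spread between libraries, which is estimated with information pooled over genes.

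HDA15 is a histone deacetylase of the RPD3 type, which removes acetyl groups from histone tails, and deacetylated chromatin is generally less transcribed. Several of the genes described here belong to the jasmonate pathway. Jasmonate is made from a plastid fatty acid by lipoxygenase, allene oxide synthase and allene oxide cyclase, its isoleucine conjugate releases the factor MYC2 from JAZ repressors, and the same signal switches on enzymes that inactivate the hormone. Others belong to the circadian clock, in which the morning factors CCA1 and LHY bind a DNA sequence called the evening element, while the evening complex of ELF3, ELF4 and LUX represses genes at night.

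The libraries held 12537767 to 21400580 counts, with 21400580 and 17096202 in *hda15-1*. A value of 0 allows up to 0.140 to 0.239 CPM, depending on the library (3 counts, for counting error only). HDA15 (AT3G18520; chromosome 3 of TAIR10.1, 6361159 to 6365705, plus strand) had 3.18 and 3.45 CPM in *hda15-1* and 32.6 to 54.2 CPM in the 10 other libraries, so the targeted transcript was low in both libraries labelled as the mutant. Across genes, the *hda15-1* libraries correlated with each other at 0.994 (Pearson, log2(CPM + 1)), with the own Col-0 pair at 0.978 to 0.983, with the separate Col-0 pair at 0.969 to 0.975 and with the other mutants at 0.963 to 0.970. Shoot markers (6 genes) summed to 46474 and 44910 CPM in *hda15-1* and to 32653 to 44361 CPM elsewhere. Root markers (7 genes) summed to 126 and 138 CPM in *hda15-1*, to 180 and 184 CPM in the own Col-0 pair and to 28.0 to 55.7 CPM in the 8 remaining libraries, and seed storage markers (8 genes) to 0.374 and 1.29, to 67.1 and 59.6, and to 0.0798 to 10.4 CPM, and 1 of the 8 seed markers was at 0 in both *hda15-1* libraries. Flower markers (4 genes) summed to 13.5 and 14.0 CPM in *hda15-1* and to 6.81 to 31.2 CPM elsewhere. Nearly all of the flower sum came from SEP3 (13.1 and 13.3 CPM in *hda15-1*), while AP3, PI and AG had too few counts to test. The root sum came mostly from PHO1 (102.4 and 105.1 CPM in the own Col-0 pair) and CASP1 (58.6 and 59.0 CPM). Fewer cells of a type and less RNA per cell cannot be told apart in such whole-seedling samples, and the part of these markers in the results below was not tested.

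The stretches upstream of 8 of the genes are shown because 2 short motifs were frequent there. These were the core letters of the evening element (AATATCT) in genes lower in *hda15-1* and the G-box (CACGTG) in both groups. MYC-type and bZIP factors bind the G-box. Hereafter, evening element means only these core letters. The full element is longer, and its further bases were not required, so some sites hold only the core. Each stretch is the 250 bases before the annotated start, 5′ to 3′ on the gene's strand, from the RefSeq genome TAIR10.1. Capitals mark a G-box or an evening element on either strand. PCL1, also known as LUX, encodes the DNA-binding subunit of the evening complex (chr3:17182792-17183041, plus strand), OEP6 a protein of the chloroplast outer envelope (chr3:23334035-23334284, minus strand), BT1 a scaffold protein with BTB and TAZ domains (chr5:25335571-25335820, minus strand) and AT1G22570 a transporter of the major facilitator superfamily (chr1:7978811-7979060, minus strand). All of these were lower in *hda15-1*.
PCL1: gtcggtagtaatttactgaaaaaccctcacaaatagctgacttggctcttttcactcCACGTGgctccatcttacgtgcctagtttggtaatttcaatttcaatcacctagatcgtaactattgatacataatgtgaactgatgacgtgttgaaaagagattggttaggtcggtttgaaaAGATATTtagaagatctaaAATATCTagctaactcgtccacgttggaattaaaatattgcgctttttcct
OEP6: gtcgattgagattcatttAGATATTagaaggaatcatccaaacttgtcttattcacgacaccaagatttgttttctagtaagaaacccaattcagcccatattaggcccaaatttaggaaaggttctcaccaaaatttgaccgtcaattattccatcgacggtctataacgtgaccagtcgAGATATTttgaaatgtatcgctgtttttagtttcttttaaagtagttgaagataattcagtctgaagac
BT1: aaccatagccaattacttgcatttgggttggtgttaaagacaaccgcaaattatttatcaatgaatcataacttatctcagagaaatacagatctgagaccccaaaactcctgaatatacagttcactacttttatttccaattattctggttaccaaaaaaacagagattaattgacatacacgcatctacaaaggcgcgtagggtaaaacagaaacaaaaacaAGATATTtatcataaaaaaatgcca
AT1G22570: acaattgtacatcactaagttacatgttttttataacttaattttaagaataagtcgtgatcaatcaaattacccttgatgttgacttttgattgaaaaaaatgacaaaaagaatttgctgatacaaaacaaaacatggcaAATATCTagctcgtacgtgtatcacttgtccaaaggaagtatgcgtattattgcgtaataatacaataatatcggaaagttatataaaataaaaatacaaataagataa
From the genes higher in *hda15-1*, AOS encodes allene oxide synthase (chr5:17099596-17099845, minus strand), COR15A a cold-regulated protein that protects chloroplast membranes during freezing (chr2:17712331-17712580, minus strand), TT4 chalcone synthase, the entry enzyme of flavonoid synthesis (chr5:4488226-4488475, plus strand), and RAP2.6 a transcription factor of the ERF family (chr1:16263555-16263804, plus strand).
AOS: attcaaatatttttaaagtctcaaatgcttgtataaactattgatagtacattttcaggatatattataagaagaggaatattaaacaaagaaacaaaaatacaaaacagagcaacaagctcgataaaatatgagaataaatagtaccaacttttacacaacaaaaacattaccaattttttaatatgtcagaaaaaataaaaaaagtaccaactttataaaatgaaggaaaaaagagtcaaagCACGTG
COR15A: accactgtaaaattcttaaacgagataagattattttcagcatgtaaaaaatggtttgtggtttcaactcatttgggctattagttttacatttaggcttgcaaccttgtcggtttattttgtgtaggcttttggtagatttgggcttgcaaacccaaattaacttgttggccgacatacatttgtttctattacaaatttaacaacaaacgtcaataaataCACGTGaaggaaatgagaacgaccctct
TT4: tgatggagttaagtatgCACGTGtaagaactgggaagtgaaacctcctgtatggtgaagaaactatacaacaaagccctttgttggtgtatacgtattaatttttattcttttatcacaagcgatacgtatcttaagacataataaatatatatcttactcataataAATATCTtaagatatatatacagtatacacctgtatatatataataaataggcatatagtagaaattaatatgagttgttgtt
RAP2.6: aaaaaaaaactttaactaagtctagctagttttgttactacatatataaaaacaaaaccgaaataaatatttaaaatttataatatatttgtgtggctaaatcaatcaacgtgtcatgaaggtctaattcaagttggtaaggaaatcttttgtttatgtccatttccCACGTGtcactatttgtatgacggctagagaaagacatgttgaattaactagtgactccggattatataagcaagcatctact
PCL1 held 2 evening elements, 51 and 70 bases before its start, and a G-box 193 bases before it. OEP6 held evening elements 69 and 232 bases before the start, BT1 held 1 at 25 bases and AT1G22570 held 1 at 109 bases. The G-boxes of AOS, COR15A, RAP2.6 and TT4 lay 6, 28, 83 and 233 bases before the start, and TT4 also held an evening element at 83 bases.

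In windows from 250 bases before to 50 bases after the start, searched on both strands, the evening element was found in 8 of the 14 lower genes with an annotated start (57.1%) and in 5 of the 39 higher genes (12.8%). It was found in 11.6% of all 26718 windows and in 11.7% of the 13280 windows of genes that pass the 5 CPM floor. Beside the 4 genes printed above, the lower genes with an evening element were CCL, AT2G15960, Fes1B and AT1G67660. The G-box was found in 11 higher genes (28.2%) and 4 lower genes (28.6%), against 7.79% of all windows. The E-box CATGTG was found in 23.1% of the higher and 7.14% of the lower genes, against 13% of all windows, and the W-box (TTGACC or TTGACT) in 41.0% and 42.9%, against 32.4%. The auxin response element TGTCTC (15.4% and 0%, against 14.1%), the GCC box GCCGCC (5.13% and 0%, against 2.55%), the as-1 core TGACG (20.5% and 14.3%, against 23.1%) and TATAAA (51.3% and 42.9%, against 52.6%) were also counted. These are matches of letters in genes chosen by their level, and binding was not measured.

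**Figure D1:**
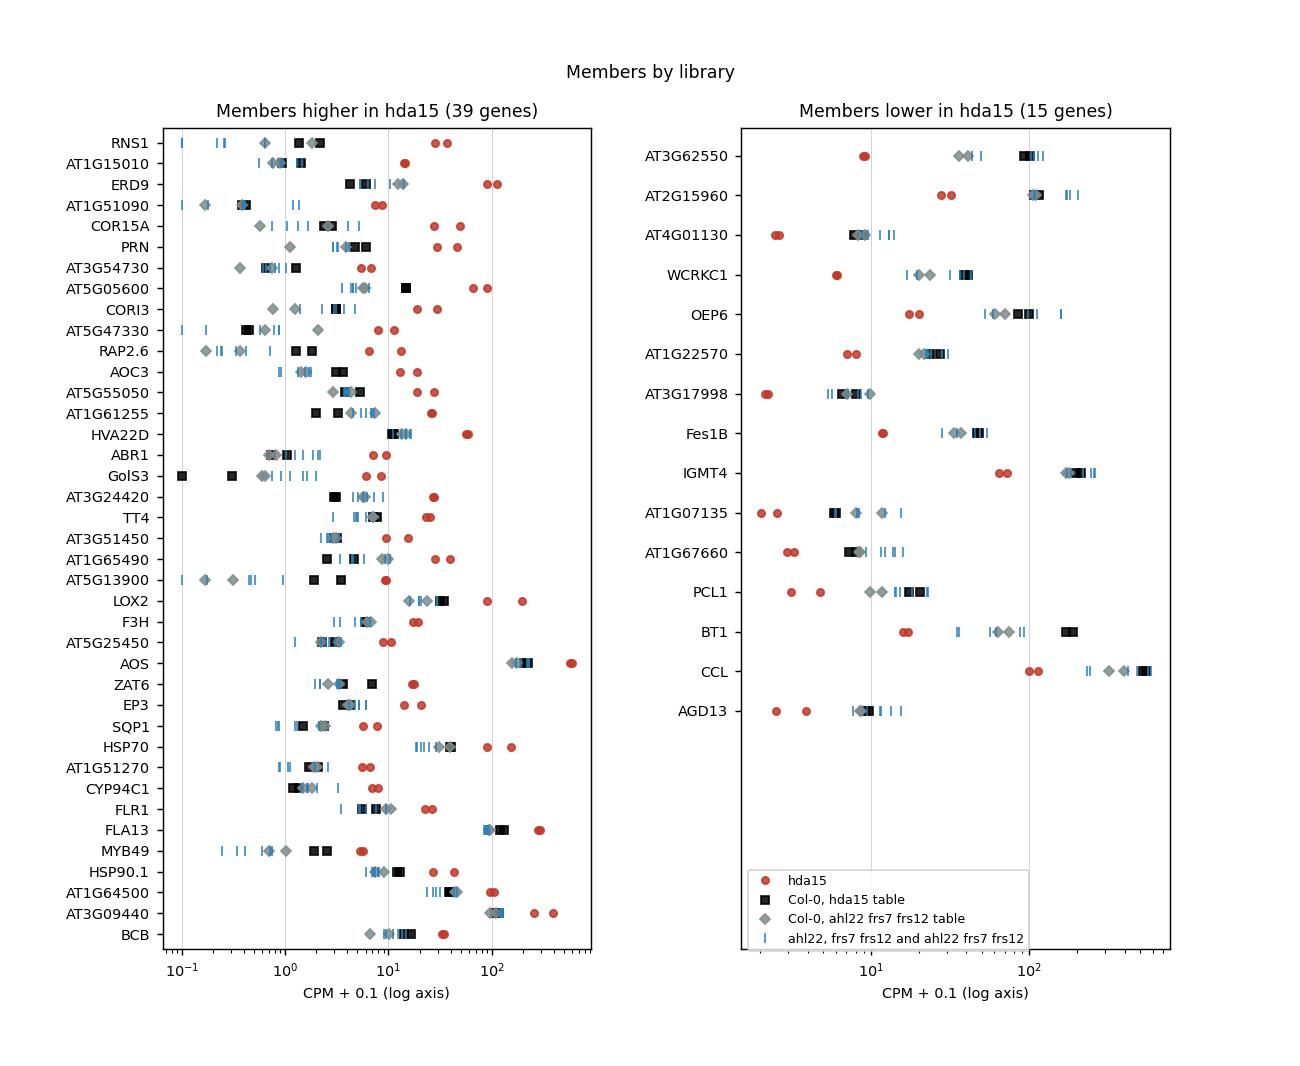
Transcript level (CPM + 0.1, log axis) of the 39 genes higher and the 15 genes lower in *hda15-1*, 1 row per gene in the order of the rule's ratio and 1 mark per library. Both *hda15-1* libraries (red) lie to the right of all 10 other libraries in the left panel and to the left of them in the right panel, by at least 2-fold as the rule requires.

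The higher genes summed to 2105 and 2598 CPM in the *hda15-1* libraries and to 561 to 714 CPM in the others, and the lower genes to 279 and 302 CPM against 806 to 1493 CPM. The ratio used by the rule ran from 2.01 to 13.4 for the higher genes (median 2.93) and from 2.02 to 3.97 for the lower genes (median 2.37). Just inside the threshold of 2 lay BCB (2.01), AT3G09440 (2.01) and AT1G64500 (2.08) on the higher side, and AGD13 (2.02), CCL (2.03) and BT1 (2.04) on the lower side. Just outside lay KIN1 (1.99), SAHH2 (1.93) and AT5G03545 (1.93), and AT4G32340 (1.97), IDD2 (1.97) and AT1G75960 (1.96). In the fit of *hda15-1* against the own Col-0 pair, the log2 fold change of the higher genes ran from 1.2 (BCB) to 5.98 (GolS3, which had only 3 and 0 counts in the own Col-0 pair, so that its value depends on the prior count), with a median of 2.32. That of the lower genes ran from -1.28 (AT1G67660) to -3.39 (BT1), with a median of -1.85, while the median over all 19242 genes tested was 0.0044. In that fit 4.05% of all genes were called higher and 3.65% lower (adjusted p below 0.05 in edgeR's quasi-likelihood test and a log2 fold change past 1 or -1), and all 54 genes were called, which follows from the rule. All 54 were also called against the separate Col-0 pair, where 8.09% of all genes were higher and 3.33% lower. Of the 39 higher genes, 31 were higher in the second than in the first *hda15-1* library, by a median of 1.18-fold over the 39, as were 8 of the 15 lower genes. The highest library outside *hda15-1* belonged to the own Col-0 pair for 16 of the 39 higher genes. It belonged to the separate Col-0 pair for 6, to *ahl22* for 5, to *frs7 frs12* for 5 and to *ahl22 frs7 frs12* for 7. The same was not counted over all genes, so these counts have no baseline.

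The same rule applied to each other pair of libraries gave 103 genes for the own Col-0 pair (76 higher, 27 lower) and 0 for the separate Col-0 pair. It gave 2 for *ahl22* (both higher), 8 for *frs7 frs12* (2 higher, 6 lower) and 8 for *ahl22 frs7 frs12* (2 higher, 6 lower). The *hda15-1* count was thus smaller than that of the own Col-0 pair and larger than those of the other mutants, which is a count without a test. With the first *hda15-1* library alone, the rule kept 59 higher and 47 lower genes, and with the second alone 73 higher and 23 lower genes. The genes kept with both are the 39 higher and 15 lower genes by definition, since the rule requires both libraries. These counts are therefore no check of the choice.

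Among the 39 higher genes, 6 belong to jasmonate synthesis, turnover or response. In LOX2 (AT3G45140), the plastid lipoxygenase of jasmonate synthesis, 90.9 and 194.5 CPM were measured in *hda15-1*, against 31.2 and 34.2 CPM in the own Col-0 pair and 15.8 and 23.7 CPM in the separate Col-0 pair. The 6 libraries of the other mutants had 16.1 to 29.2 CPM (median 20.3). Its *hda15-1* replicates differed by 2.14-fold, the widest spread among the higher genes, and both stood above all other libraries. AOS (AT5G42650) had 574.8 and 596.6 CPM in *hda15-1*, 227.1 and 203.7 CPM in the own Col-0 pair, 175.3 and 158.9 CPM in the separate Col-0 pair and 170.3 to 227.6 CPM (median 207.5) in the other mutants. The log2 fold change of AOS was 1.5 (SE 0.129) against the own and 1.95 (SE 0.137) against the separate Col-0 pair, and that of LOX2 was 2.16 (SE 0.230) and 2.97 (SE 0.280). AOC3 (AT3G25780), an allene oxide cyclase, had 12.8 and 18.7 CPM in *hda15-1*, 2.99 and 3.52 CPM in the own Col-0 pair and 0.769 to 1.68 CPM in the 8 remaining libraries. Outside *hda15-1*, LOX2 and AOC3 were highest in the own Col-0 pair, while AOS was highest in a library of *ahl22 frs7 frs12*.

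The genes of jasmonate inactivation and response were also higher. AT5G05600, a 2-oxoglutarate-dependent oxygenase (JOX2) that hydroxylates jasmonic acid, had 65.6 and 89.3 CPM in *hda15-1*. It had 14.9 and 14.8 CPM in the own Col-0 pair and 3.43 to 6.38 CPM in all 8 remaining libraries, so that the libraries formed 3 separate levels. CYP94C1 (AT2G27690), a cytochrome P450 that oxidises jasmonoyl-isoleucine, had 6.82 and 7.84 CPM in *hda15-1* and 1.1 to 3.12 CPM elsewhere, with the highest other value in *frs7 frs12*. CORI3 (AT4G23600), an aminotransferase-family protein induced by the jasmonate mimic coronatine, had 19.0 and 29.4 CPM in *hda15-1*, 2.99 and 2.98 CPM in the own Col-0 pair, 1.14 and 0.668 CPM in the separate Col-0 pair and 1.3 to 4.62 CPM (median 2.94) in the other mutants. All 6 jasmonate genes were higher in the second than in the first *hda15-1* library, by a median of 1.41-fold.

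A list of 24 jasmonate genes was counted beside these, of which 21 had enough counts to test and 5 belong to the 54. Against the own Col-0 pair, 13 of the 21 were called higher (4.05% of all genes) and 0 lower (3.65%), with a median log2 fold change of 1.5 against 0.0044 over all genes. Beside the 0 called lower, 1 gene had a lower level at an unadjusted p below 0.05 in edgeR, and DESeq2 called 13 higher and 0 lower. Of the 16 tested genes that the rule did not choose, 8 were called higher (median 1.26). Against the separate Col-0 pair, 14 of 21 were called higher (8.09% of all genes) and 0 lower, with 0 lower also at an unadjusted p below 0.05, and 11 were called against both pairs. Among those the rule did not choose, AOC1, a further allene oxide cyclase, had a log2 fold change of 1.48 (SE 0.149, adjusted p = 4.76e-06 in edgeR's test) against the own and 2.01 against the separate Col-0 pair. CYP94B3, which hydroxylates jasmonoyl-isoleucine, had 2.35 (SE 0.35, adjusted p = 0.00018 in edgeR's test) and 2.74. TAT3, a tyrosine aminotransferase of the jasmonate response, had 3.90 (SE 0.688, adjusted p = 0.00075 in edgeR's test) and 4.6, from mean levels of 1.72 CPM in *hda15-1* and 0.109 CPM in the own Col-0 pair. LOX3, JAZ1 and VSP2 were also called against both pairs, with log2 fold changes of 1.44, 1.09 and 1.5 against the own pair. JAZ10 (2.78 against the own pair) and CLH1 (1.87) were not called against the other pair, where they had 0.61 and 0.93. MYC2, the transcription factor of the pathway, had -0.35 and 0.23, and the conjugating enzyme JAR1 had -0.08 and 0.21, none of which was called.

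**Figure D2:**
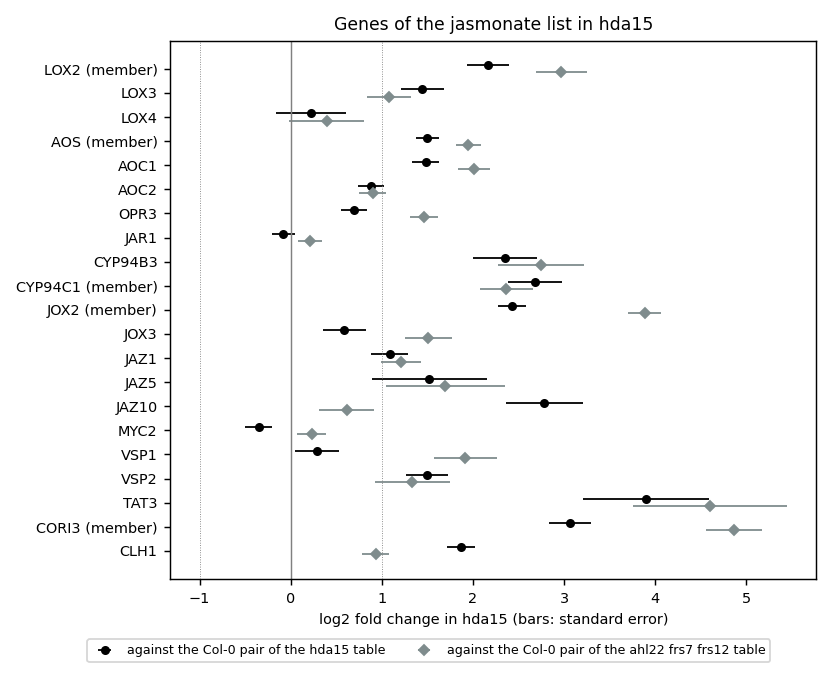
Log2 fold change of the 21 tested genes of the jasmonate list in *hda15-1* against the own Col-0 pair (black) and the separate Col-0 pair (grey), with standard errors from edgeR. Dotted lines mark the thresholds of 1 and -1, and 19 of the 21 values against the own pair lie above 0.

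Transcription factors made up 4 of the higher genes. RAP2.6 (AT1G43160), an ERF factor that responds to jasmonate and stress, had 6.35 and 13.2 CPM in *hda15-1*. It had 1.18 and 1.72 CPM in the own Col-0 pair, 0.0713 and 0.267 CPM in the separate Col-0 pair and 0.116 to 0.610 CPM in the other mutants, again 3 levels with the own Col-0 pair in the middle. MYB49 (AT5G54230), a MYB factor, followed the same order, with 5.56 and 5.15 CPM in *hda15-1*, 2.43 and 1.80 CPM in the own Col-0 pair and 0.145 to 0.927 CPM elsewhere. ABR1 (AT5G64750), an ERF factor known as a repressor of abscisic acid responses, had 6.96 and 9.42 CPM in *hda15-1* and 0.601 to 2.07 CPM elsewhere, with its highest other value in *ahl22 frs7 frs12*. ZAT6 (AT5G04340), a zinc-finger factor of stress responses, had 16.9 and 17.8 CPM in *hda15-1* and 1.83 to 6.80 CPM elsewhere.

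Genes of cold and desiccation formed a further group of 4. COR15A (AT2G42540) had 27.4 and 48.8 CPM in *hda15-1*, 2.29 and 2.74 CPM in the own Col-0 pair, 2.50 and 0.467 CPM in the separate Col-0 pair and 0.638 to 5.08 CPM (median 1.39) in the other mutants. Its log2 fold change was 3.96 (SE 0.260) against the own and 4.82 (SE 0.422) against the separate Col-0 pair. GolS3 (AT1G09350), a galactinol synthase of the raffinose pathway, had 6.03 and 8.36 CPM in *hda15-1*, 0.208 and 0 CPM in the own Col-0 pair and 0.499 to 1.89 CPM elsewhere. ERD9 (AT1G10370), a glutathione S-transferase first found as an early dehydration gene, had 90.7 and 113.1 CPM in *hda15-1*. It had 5.90 and 4.15 CPM in the own Col-0 pair, 13.7 and 12.3 CPM in the separate Col-0 pair and 5.16 to 14.0 CPM in the other mutants, and its highest level outside *hda15-1* was in *ahl22 frs7 frs12*. HVA22D (AT4G24960), an abscisic acid-responsive membrane protein, had 56.0 and 59.4 CPM in *hda15-1* and 10.8 to 16.4 CPM elsewhere. The list of 12 abscisic acid and desiccation genes held genes called in each direction. Of 11 tested, 5 were called higher and 3 lower (median 0.93) against the own Col-0 pair, and 5 higher and 0 lower (median 0.62) against the other, where 1 had a lower level at an unadjusted p below 0.05 in edgeR. Over all genes, 4.05% and 3.65% were called against the own pair, and 8.09% and 3.33% against the other. COR15A, which the rule chose, is among the 5, and without it 4 of 10 were called higher and 3 lower, with a median of 0.12. RD29A, a dehydration-responsive gene, had 2.22 (SE 0.207) and 3 (SE 0.516) and was called against both pairs, as were KIN1 and ERD10. The columns of the separate Col-0 pair differed widely, with 42.0 and 7.28 CPM for RD29A, 3.42 and 0.801 CPM for KIN1 and 43.2 and 21.7 CPM for ERD10. The *hda15-1* libraries had 122.5 and 238.2 CPM for RD29A and 78.8 and 160.3 CPM for ERD10. RD29A had 81.6 and 92.2 CPM in *ahl22*. RD22 was called higher (1.14), and RD29B (-1.57), RAB18 (-1.55) and ABI5 (-1.61) were called lower, against the own Col-0 pair, and not against the other, where they had 0.55, -1.05, -0.23 and -0.03.

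Heat shock proteins contributed 3 genes. HSP70 (AT3G12580) had 90.0 and 154.0 CPM in *hda15-1*, 39.1 and 40.6 CPM in the own Col-0 pair, 39.7 and 30.8 CPM in the separate Col-0 pair and 18.6 to 28.6 CPM in the other mutants. HSP90.1 (AT5G52640) had 26.6 and 43.2 CPM in *hda15-1*, 12.7 and 12 CPM in the own Col-0 pair and 6.02 to 8.99 CPM in the 8 remaining libraries. AT3G09440, a further protein of the Hsp70 family, had 256.3 and 396.8 CPM in *hda15-1* and 96.4 to 127.6 CPM elsewhere. All 3 were higher in the second *hda15-1* library, by a median of 1.62-fold, the widest median among the groups with at least 3 genes. Of the 7 tested genes of the heat shock list, which holds the first 2 of these, 5 were called higher (4.05% of all genes) and 0 lower (3.65%), with a median of 1.54. At an unadjusted p below 0.05 in edgeR 0 were lower, and DESeq2 called 0 lower. Of the 5 that the rule did not choose, 3 were called higher (median 1.22). The same 5 of the list were called higher against the separate Col-0 pair (8.09% of all genes). The other 3 were the factor HSFA2 (2.52), HSP101 (1.22) and HSP17.6II, whose log2 fold change of 6.23 depends on the prior count, since its mean level was 0.0347 CPM in the own Col-0 pair.

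TT4 and F3H are enzymes of flavonoid synthesis. TT4 (AT5G13930) had 22.8 and 25.3 CPM in *hda15-1* and 7.01 and 7.6 CPM in the own Col-0 pair, 6.92 and 6.95 CPM in the separate Col-0 pair and 2.78 to 5.94 CPM in the other mutants. F3H (AT3G51240), flavanone 3-hydroxylase, had 19.3 and 17.3 CPM in *hda15-1*, 5.83 and 5.87 CPM in the own Col-0 pair, 6.63 and 6.14 CPM in the separate Col-0 pair and 2.84 to 6.46 CPM in the other mutants. The Col-0 libraries thus lay close together for both genes, and the log2 fold changes were 1.77 and 1.93 for TT4 and 1.70 and 1.66 for F3H. In the flavonoid list, 4 of 7 tested genes were called higher against the own Col-0 pair (median 1.36, 4.05% of all genes called) and 3 against the other (median 0.13, 8.09% of all genes called), but 2 of the 4 are TT4 and F3H, which the rule chose. Of the 5 others, 2 were called higher (median 0.45), and DESeq2 called 2 of the 7. The further called genes were MYB12, a factor that activates these enzymes (1.36 and 3.02), and LDOX (2.34 and 0.13, called against the own pair). Both had low levels. MYB12 had 1.68 and 1.99 CPM in *hda15-1* and 0.694 and 0.783 CPM in the own Col-0 pair. LDOX had 0.654 and 1.23 CPM against 0.347 and 0 CPM, so that its value against the own pair depends on the prior count. CHI and FLS1, enzymes of the same pathway, had 0.45 and 0.28 and were not called.

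A further 7 higher genes encode other named proteins. RNS1 (AT2G02990), a secreted ribonuclease induced by wounding and phosphate shortage, had the largest ratio of all. It had 27.8 and 36.8 CPM in *hda15-1*, 2.08 and 1.25 CPM in the own Col-0 pair, 1.71 and 0.534 CPM in the separate Col-0 pair and 0 to 0.533 CPM in the other mutants. PRN (AT3G59220), a pirin-type cupin protein, had 29.4 and 46.2 CPM in *hda15-1* and 1.00 to 5.95 CPM elsewhere. EP3 (AT3G54420), a chitinase, had 14.0 and 20.6 CPM in *hda15-1* and 3.52 to 5.92 CPM elsewhere. FLA13 (AT5G44130), an arabinogalactan protein, had 293.8 and 283.5 CPM against 83.3 to 132.4 CPM, and BCB (AT5G20230), a blue copper-binding protein, had 33.0 and 34.3 CPM against 6.54 to 16.5 CPM. FLR1 (AT3G12145), a leucine-rich repeat protein, and SQP1 (AT5G24150), an FAD-dependent oxidoreductase, had 22.4 and 26.4 CPM and 5.51 and 7.72 CPM, against 3.35 to 10.4 CPM and 0.718 to 2.35 CPM. Outside *hda15-1*, RNS1, PRN, FLA13 and BCB were highest in the own Col-0 pair.

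The remaining 13 higher genes are annotated by a protein family or not at all. AT1G15010, annotated as a subunit of the mediator complex and second by ratio, had 14.2 and 14.4 CPM in *hda15-1* and 0.457 to 1.36 CPM elsewhere. AT1G51090, of the heavy metal transport superfamily, had 7.29 and 8.48 CPM against 0 to 1.26 CPM, and its highest other values were in *ahl22*. AT3G54730, annotated as a transcription repressor, had 6.64 and 5.32 CPM against 0.267 to 1.17 CPM. For all 3, the lower *hda15-1* library had at least 4 times the highest other library. The alpha/beta-hydrolases AT5G47330 and AT3G24420 had 7.85 and 11.2 CPM and 26.8 and 27.4 CPM in *hda15-1*, against 0 to 2.00 CPM and 2.85 to 8.69 CPM elsewhere. AT5G13900, a lipid-transfer protein, had 9.44 and 9.12 CPM in *hda15-1*, 3.33 and 1.80 CPM in the own Col-0 pair and 0 to 0.847 CPM elsewhere. It lies 6.53 kb from TT4, and no other 2 of the 53 genes with an annotated position lie within 20 kb of each other. The 2 differed outside *hda15-1*, where TT4 had 6.92 to 7.6 CPM in all 4 Col-0 libraries. The lipase AT5G55050 had 18.7 and 27.8 CPM in *hda15-1* (2.80 to 5.17 CPM elsewhere), the glutaredoxin AT1G64500 had 96.3 and 105.7 CPM (23.6 to 46.2 CPM), and AT3G51450 had 9.35 and 15.4 CPM (2.13 to 3.19 CPM). AT1G61255 and AT1G65490, without an annotated function, had 25.7 and 26.6 CPM and 39.1 and 28.4 CPM in *hda15-1*, and their lowest values were in the own Col-0 pair (1.87 and 2.43 CPM). AT5G25450 and AT1G51270 had 10.5 and 8.72 CPM and 6.54 and 5.50 CPM, against 1.15 to 3.35 CPM and 0.769 to 2.49 CPM.

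Of the 15 lower genes, PCL1 and CCL are known for a daily rhythm of their transcripts. PCL1 (AT3G46640) had 3.04 and 4.68 CPM in *hda15-1*, 20.3 and 17.2 CPM in the own Col-0 pair, 11.6 and 9.75 CPM in the separate Col-0 pair and 14.1 to 22.7 CPM (median 16.7) in the other mutants. CCL (AT3G26740) had 99.7 and 113.3 CPM in *hda15-1*, 540.9 and 521.5 CPM in the own Col-0 pair, 318.1 and 394.2 CPM in the separate Col-0 pair and 229.6 to 580.9 CPM in the other mutants. For both, the separate Col-0 pair lay below the own Col-0 pair. The log2 fold change of PCL1 was -2.25 (SE 0.218) against the own and -1.34 (SE 0.256) against the separate Col-0 pair, and that of CCL was -2.26 (SE 0.129) and -1.60 (SE 0.145).

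A list of 11 core clock genes, chosen after PCL1 was seen among the lower genes, is therefore only described. Against the own Col-0 pair, CCA1, LHY, RVE8 and PRR9 were called higher and PRR5, TOC1, GI, ELF3, ELF4 and PCL1 lower, and PRR7 (-0.73) was not called. Over all genes, 4.05% were called higher and 3.65% lower. Against the separate Col-0 pair, CCA1 and RVE8 were called higher and PCL1 lower, beside 8.09% and 3.33% of all genes. CCA1 had 52.5 and 67.0 CPM in *hda15-1*, 14.1 and 15.7 CPM in the own Col-0 pair and 34.2 and 31.2 CPM in the separate Col-0 pair. PRR5 had 2.62 and 3.63 CPM in *hda15-1*, 42.1 and 52.7 CPM in the own Col-0 pair and 5.78 and 6.28 CPM in the separate Col-0 pair, and 5.51 to 31.5 CPM in the other mutants. Both *hda15-1* libraries lay above all others for CCA1, LHY and RVE8 and below all others for PRR7, PRR5, TOC1, GI and PCL1, whereas PRR9, ELF3 and ELF4 overlapped with other libraries. For these 8 genes, the separate Col-0 pair lay between the own Col-0 pair and *hda15-1*. How many of all genes lie outside all other libraries in this way was not counted, so the 8 have no baseline. The time of day at which each set was collected is not given in the sources used here, and the part of time of day in the difference of the 54 genes was not tested.

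**Figure D3:**
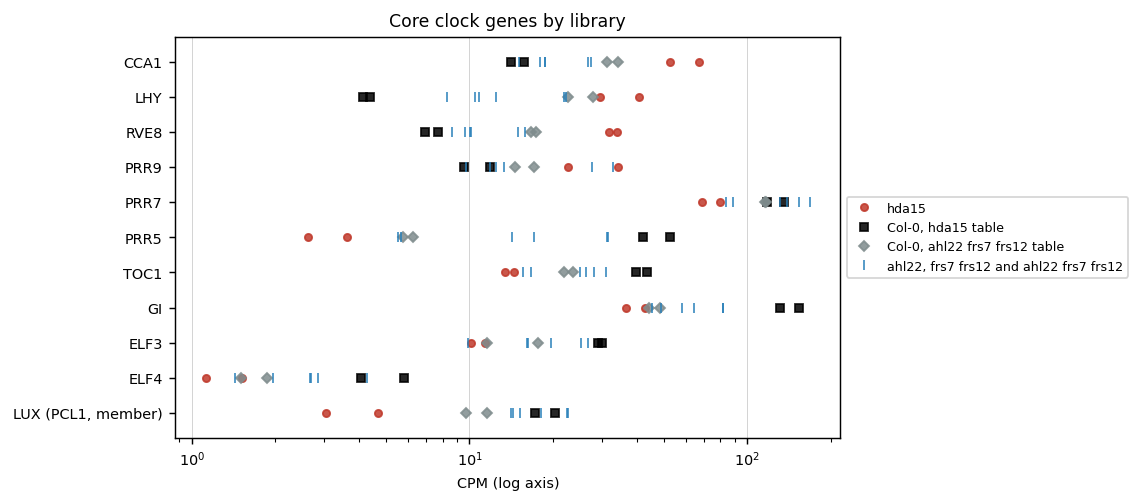
Transcript level (CPM, log axis) of 11 core clock genes, 1 mark per library. The own Col-0 pair (black) and the separate Col-0 pair (grey) lie apart for most genes, as for PRR5 with 42.1 and 52.7 against 5.78 and 6.28 CPM, and the *hda15-1* libraries (red) lie outside all others for PCL1 with 3.04 and 4.68 CPM.

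Other named genes among the lower set were proteins of the plastid and of several other roles. OEP6 (AT3G63160) had 20.0 and 17.3 CPM in *hda15-1*, 84.9 and 99.1 CPM in the own Col-0 pair, 60.4 and 70.1 CPM in the separate Col-0 pair and 52.6 to 158.6 CPM in the other mutants. WCRKC1 (AT5G06690), a plastid thioredoxin-like protein, had 5.98 and 5.91 CPM in *hda15-1*, 38.8 and 40.7 CPM in the own Col-0 pair and 16.7 to 42.4 CPM in the 8 remaining libraries. Both were lower in the other than in the own Col-0 pair. BT1 (AT5G63160) had 17.1 and 15.9 CPM in *hda15-1*, 171.0 and 188.5 CPM in the own Col-0 pair, 63.0 and 74.3 CPM in the separate Col-0 pair and 34.7 to 92.8 CPM in the other mutants. Its log2 fold change was -3.39 (SE 0.146) against the own and -1.92 (SE 0.157) against the separate Col-0 pair. IGMT4 (AT1G21130), an O-methyltransferase of indole glucosinolate synthesis, had 64.4 and 72.5 CPM in *hda15-1* and 170.2 to 260.7 CPM elsewhere. Fes1B (AT3G53800), named after the yeast exchange factor of Hsp70, had 11.7 and 11.6 CPM in *hda15-1* and 27.8 to 54.2 CPM elsewhere. AGD13 (AT4G05330), a GTPase-activating protein of the ARF type, had 3.78 and 2.40 CPM in *hda15-1* and 7.66 to 15.4 CPM elsewhere.

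The remaining 7 lower genes are annotated by family or not at all. AT3G62550, of the adenine nucleotide alpha hydrolase-like superfamily, had the largest ratio among the lower genes. It had 8.83 and 9.01 CPM in *hda15-1*, 92.0 and 101.2 CPM in the own Col-0 pair, 40.6 and 35.7 CPM in the separate Col-0 pair and 43.4 to 121.4 CPM in the other mutants. AT2G15960, annotated as stress-induced, had 27.7 and 31.9 CPM in *hda15-1*, 107.1 and 115.2 CPM in the own Col-0 pair and 109.9 and 106.0 CPM in the separate Col-0 pair. The Col-0 pairs overlapped, and the other mutants had 106.7 to 202.9 CPM. The lipase AT4G01130 had 2.38 and 2.52 CPM in *hda15-1* and 7.75 to 13.8 CPM elsewhere, and AT1G22570 had 7.94 and 6.96 CPM against 19.9 to 30.7 CPM. AT1G67660, a restriction endonuclease-like protein, had 2.85 and 3.16 CPM against 7.13 to 15.8 CPM. The glycine-rich AT1G07135 had 1.92 and 2.46 CPM against 5.76 to 15.4 CPM, and AT3G17998 had 2.15 and 2.05 CPM against 5.29 to 9.75 CPM.

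Comparisons without *hda15-1* describe how the 54 genes varied among the other libraries. The rule used the highest or the lowest of these libraries as its limit, and so left out genes that were high, or low, in another mutant. The counts and medians are therefore descriptions and support nothing. *ahl22* and *frs7 frs12* share the own Col-0 pair as control, so their results are not independent and are given side by side. In *ahl22*, 2 of the 39 higher genes were called higher and 8 lower, and of the 15 lower genes 1 was called higher and 1 lower, while 7.07% of all genes were called higher and 11.2% lower. In *frs7 frs12*, 2 of 36 tested higher genes were called higher and 9 lower, and of the 15 lower genes 0 were called higher and 1 lower, against 7.18% and 11.7% of all genes. Beside that 0, 5 of the 15 had an unadjusted p below 0.05 and a positive change in edgeR, and DESeq2 called 0 higher. Over all genes in that edgeR fit, 59.0% had an unadjusted p below 0.05, both directions counted. Without the second library of the own Col-0 pair, 7 instead of 12 of the 54 were called in *frs7 frs12*. For the genes higher in *hda15-1*, the median log2 fold change was -0.39 in *ahl22* and -0.58 in *frs7 frs12*, against 0.02 over all genes in both.

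Single genes are given for both mutants. GolS3 was called higher in both, with 1.39 and 1.89 CPM in *ahl22* and 1.52 and 0.812 CPM in *frs7 frs12* against 0.208 and 0 CPM in the own Col-0 pair. RNS1 had a log2 fold change of -4.53 in *ahl22* and -2.52 in *frs7 frs12*, the direction opposite to that in *hda15-1*, from levels at or near 0 in the mutants that make the size depend on the prior count. AT5G05600 had -2.05 and -1.52, AOC3 had -1.89 and -1.50, and HSP70 had -1.15 and -1.10. These 4 genes and RAP2.6, MYB49 and AT5G13900 were called lower in both. Among the genes lower in *hda15-1*, BT1 was called lower in *ahl22* (-2.54) and in *frs7 frs12* (-1.07), the same direction as in *hda15-1*. AT1G07135 was called higher in *ahl22* (1.06) and had 0.21 in *frs7 frs12*.

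Some of these genes also differed between the Col-0 pairs. Against the own Col-0 pair, the separate Col-0 pair had 3 of 35 tested higher genes called higher (ERD9, AT1G61255 and AT1G65490) and 7 called lower (RAP2.6, AT5G05600, AT5G13900, MYB49, AOC3, PRN and CORI3), where 6.61% and 9.92% of all genes were called. Of the lower genes, BT1 (-1.46) and AT3G62550 (-1.42) were called lower and 0 higher, beside which 1 of the 15 had an unadjusted p below 0.05 and a positive change in edgeR, and DESeq2 called 0 higher. Over all genes in that edgeR fit, 55.1% had an unadjusted p below 0.05, both directions counted. AT5G05600 had -1.45 between the Col-0 pairs against -2.05 and -1.52 in *ahl22* and *frs7 frs12*, and AOC3 had -1.27 against -1.89 and -1.50. HSP70 (-0.25) and RNS1 (-0.66) were not called between the Col-0 pairs. RAP2.6 (-3.08), MYB49 (-1.54) and AT5G13900 (-4.21), called lower in both mutants, were also among those called lower between the Col-0 pairs. For these genes, AT5G05600 and AOC3, values below the own Col-0 pair were thus also found in wild-type libraries of the other table. The part of the genotype and of the set of libraries in these low values cannot be told apart.

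In *ahl22 frs7 frs12* against the separate Col-0 pair, 0 of 31 tested higher genes and 0 of 15 lower genes were called, where 0.548% of all genes were called higher and 0.903% lower. At an unadjusted p below 0.05 in edgeR, 5 of the higher genes had a positive and 2 a negative change, and of the lower genes 2 and 2, while 19.7% of all genes had such a p. DESeq2 called 0 as well. Without the fold threshold, the adjusted p in edgeR was below 0.05 for AOS (log2 fold change 0.50), BCB (0.85), AT3G09440 (0.34) and, among the lower genes, CCL (-0.52). In a fit of all libraries together, 1 of the 54 was called higher and 2 lower. Without the first column of the separate Col-0 pair 1 was called, and without the second 2.

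**Figure D4:**
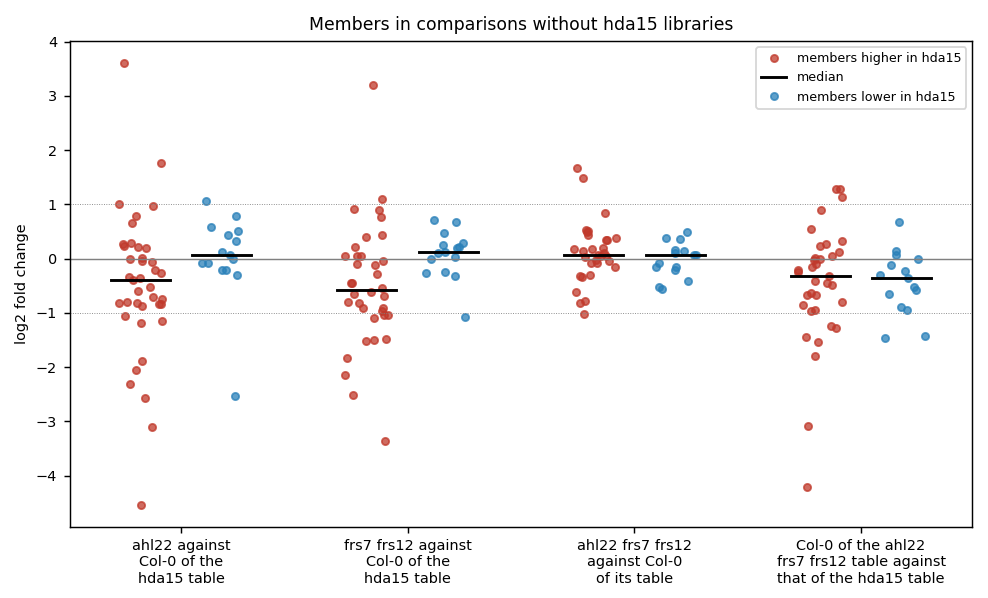
Log2 fold change of the 39 genes higher in *hda15-1* (red) and the 15 genes lower in *hda15-1* (blue) in 4 comparisons without *hda15-1* libraries, 1 point per gene with enough counts to be tested, black bars at the medians. Dotted lines mark 1 and -1, and the medians of the red points are -0.39 in *ahl22*, -0.58 in *frs7 frs12*, 0.08 in *ahl22 frs7 frs12* and -0.32 between the Col-0 pairs.

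Lists of genes of other pathways were counted in *hda15-1* against the own Col-0 pair. In that fit 4.05% of all genes were called higher and 3.65% lower. Of 14 antenna proteins of the photosystems, 0 were called in either direction by edgeR or DESeq2 (2 had a higher level at an unadjusted p below 0.05 and 0 a lower), with a median of 0.01. Of 19 genes of chlorophyll synthesis, 0 were called higher (2 at an unadjusted p below 0.05, 0 by DESeq2) and 2 lower, which were the light-dependent reductases PORB (-2.18, and -1.01 against the separate Col-0 pair) and PORA (-1.23 and -1.19). Of 8 tested histone deacetylases of the RPD3 type, HDA15 itself (-3.96) and HDA2 (-1.03) were called lower, and HDA2 had -0.04 against the separate Col-0 pair. Salicylate and immunity genes (1 higher and 1 lower of 6) and phosphate starvation genes (1 higher and 1 lower of 9) held genes called in each direction. Called among these were PR5 (1.23), CBP60G (-1.16), IPS1 (1.37) and PHT1;1 (-1.11), and against the separate Col-0 pair PHT1;1 had 3.28 while PR5 (0.32), CBP60G (-0.86) and IPS1 (0.48) were not called. DESeq2 called 0 of the salicylate genes in either direction and, of the phosphate genes, 0 higher and 1 lower. Of 15 tested genes with a symbol of the auxin-responsive SAUR family, 1 was called higher and 1 lower against the own Col-0 pair (median -0.02), and 1 higher and 12 lower against the other (median -1.68). Against the other pair, 8.09% of all genes were called higher and 3.33% lower. The median of -0.02 was the value of AT5G01830, which carries the symbol SAUR21. Its locus number lies apart from those of SAUR20 (AT5G18020) and SAUR22 (AT5G18050). AT5G18030, numbered between them, was found only by product (0.44, not called). A wider list by symbol or product, made after the values of the symbol list were seen, gave 4 higher and 1 lower of 56 (median 0.15) and 5 higher and 23 lower of 57 (median -0.81). None of the 54 genes belongs to the chlorophyll, antenna, salicylate, phosphate or SAUR lists.

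Of the 39 higher genes, 9, 3, 11, 2 and 14 lie on chromosomes 1 to 5, and of the 14 lower genes with an annotated position 4, 1, 5, 2 and 2. All 26719 annotated genes divide into 6976, 4170, 5320, 4060 and 6193, and an even spread was not tested. None of the 53 genes with an annotated position lies within 1 Mb of HDA15, and the nearest, HSP70, is 2.37 Mb away. AT3G17998 has no annotated position here, but its locus number falls between those of AT3G17980 and AT3G18000, which lie 0.207 and 0.204 Mb from HDA15. All 53 with an annotated position are protein-coding. Genes with 1 or 2 exons were 22 of the 39 higher (56.4%) and 6 of the 14 lower genes (42.9%), against 37.6% of all 26719 annotated genes and 25.0% of those that pass the 5 CPM floor. The median gene length was 1816 bases for the higher and 1868 bases for the lower genes, against 2108 bases over all annotated genes and 2570 bases over those past the floor.

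Some values could include reads of neighbours or copies, because the strand setting of the counting is not given in the sources used here. A gene on the opposite strand overlaps 7 of the higher genes (TT4, AT5G25450, AT5G55050, ABR1, AT3G09440, F3H and EP3) and, among the lower genes, PCL1. That is 17.9% of the higher and 7.14% of the lower genes, against 23.8% of all annotated genes. ERD9, AT5G13900 and AT3G09440 overlap a gene on their own strand. Stretches of at least 150 nt with at least 95% identity to another transcript were found for AT3G09440, CCL, EP3 and AT3G54730.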

How the data were processed

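The authors deposited raw read counts per gene in 4 tables, 1 per mutant, made with HISAT2 (reads mapped to TAIR10, in pairs) and Subread (versions not given in the sources used here). The 16 columns hold 12 distinct libraries, and 0 columns were left unmapped. CPM was taken as count per column total. Each comparison was fitted on its 4 libraries with edgeR 4.0.16 in R 4.3.3 (TMM, filterByExpr, quasi-likelihood test, Benjamini-Hochberg adjustment over all genes tested), and calls needed a log2 fold change past 1 or -1 at an adjusted p below 0.05. DESeq2 1.42.0, another normalization, other filters, a replicate block, left-out libraries and other settings of the rule were tried as alternatives. On simulated counts for *hda15* against Col-0, edgeR recovered 200 of 200 changed genes among 19201 with 5 false calls, and DESeq2 200 among 22782 with 0. The changed genes were drawn from those above 5 CPM, with a median absolute log2 fold change of 1.98 and the same dispersion for all genes. Recovery of smaller changes, or of genes at lower levels, was not examined. Of 27416 gene IDs, 26719 matched the RefSeq annotation of TAIR10.1, including 53 of the 54 genes described, and upstream sequences came from that genome. Similar transcripts were searched with blastn 2.17.0, and figures were drawn with matplotlib 3.10.9. Values are given by library for the 12 largest ratios in each direction, for shared families, list members, neighbours and threshold cases, and as ranges for the others. The genes and the lists were chosen with earlier results of these data known, and the clock list and a wider SAUR list were added after the values were seen. The authors' comparisons and the other assays of the series were not used here.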

Additional observations from a re-analysis of the deposited data

Results flagged for a closer look

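Among the 54 genes compared, the highest or lowest of the 4 Col-0 libraries stood far from the other 3 (Dixon's criterion) in 4 cases. Chance gives about 1 in 20 of the genes compared, so some such cases would arise by chance. The criterion treats the 4 libraries as 1 group, although the Col-0 pairs differ for many genes. AT1G51090 had 0.0668 CPM in the second column of the separate Col-0 pair and 0.278 to 0.313 CPM in the other 3, from 1 count against 4 in each. TT4 had 7.6 CPM in replicate 2 of the own Col-0 pair and 6.92 to 7.01 CPM in the others. AT5G47330 had 2.00 CPM in the first column of the separate Col-0 pair and 0.313 to 0.534 CPM in the others. HSP70 had 30.8 CPM in the second column of the separate Col-0 pair and 39.1 to 40.6 CPM in the others. In all 4 cases both *hda15-1* libraries lay outside the whole Col-0 range, as the rule requires.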

How the results depend on the processing

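Of the 11 alternative settings fitted for *hda15-1* against Col-0, all but 1 kept the call and direction of the 54 genes, and with at least 10 counts in every library 49 were tested and kept theirs, which the choice of the genes favours. With the separate Col-0 pair as control, 1559 genes instead of 779 were called higher and 16 instead of 10 genes of the lists lower. With 1 library left out at a time, 648 to 956 genes were called higher and 581 to 924 lower in *hda15-1*, and 24 to 31 genes of the lists higher and 7 to 11 lower. Of the 54 genes, 9 to 13 were then called in *ahl22*, 7 to 14 in *frs7 frs12*, 0 to 2 in *ahl22 frs7 frs12* and 8 to 16 between the Col-0 pairs, and a fit of all libraries gave 3 in *ahl22 frs7 frs12*. The rule itself gave 63 higher and 27 lower genes with a floor of 1 CPM, 26 and 9 with 10 CPM, 102 and 89 with a fold of 1.5, and 19 and 3 with a fold of 3. It gave 73 and 23 without the first *hda15-1* library, 59 and 47 without the second, 53 and 32 against Col-0 alone, and 449 and 153 against the other mutants alone. With TMM-scaled values it gave 45 and 12, of which 39 and 12 are among the 54. With 1 library left out at a time, the median log2 fold change of the abscisic acid list ran from -0.0066 to 1.07 and that of the phosphate list from -0.26 to 0.19, both lowest without the second *hda15-1* library. The median of the histone deacetylases was 0.0207 against the separate Col-0 pair. The cause was not tested. The replicate numbers of *hda15-1* and its Col-0 pair are not shown to pair the samples (correlation of deviations 0.28 over 2 pairs), and with the number as a replicate block 815 genes were called higher and 746 lower, 30 and 10 of the lists, and 12 of the 54 each in *ahl22* and *frs7 frs12*. With the column numbers of the separate Col-0 pair, which no label backs, the block gave 0 in *ahl22 frs7 frs12* and 12 between the Col-0 pairs. DESeq2 called 621 higher and 560 lower. The bound of 0.140 to 0.239 CPM, or 3 counts, holds for a value of 0 and is not the limit for detecting a change. Genes removed by the count filter were not tested, some of them above that bound. DFR, with 0.607 and 0.819 CPM in *hda15-1*, is an example.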
